A study of Mus musculus with 9 samples.

Results

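The 34 genes described here encode the enzymes and transporters of glycolysis, the enzymes of the pentose phosphate pathway, and the oxygen sensing machinery with some of its targets. They were chosen by gene symbol from a fixed list, and all 34 were found among the 25500 entries of the deposited expression table. One symbol, *Aldoa*, had a second entry that measured between 0 and 0.669 FPKM, so 35 entries matched, and the higher *Aldoa* entry was used. Glycolysis breaks glucose down to pyruvate and yields ATP without oxygen, and the pentose phosphate pathway branches off its first steps to supply NADPH and ribose. The transcription factor HIF-1α, which is degraded when oxygen is plentiful, drives many glycolytic genes in hypoxia. Effector T cells raise glycolysis on activation, while Tregs are known to rely on it less, and their glycolytic rate rises with proliferation and with mTOR signaling.

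The libraries came from an RNA-Seq comparison of sorted splenic GFP+ Tregs from mice with and without *Hsp90b1*, the gene of the endoplasmic reticulum chaperone gp96. WT mice were *Foxp3* eGFP-Cre-ERT2 with *Hsp90b1* WT/WT, and KO mice were *Foxp3* eGFP-Cre-ERT2 with *Hsp90b1* fl/fl. Both genotypes received tamoxifen at 75 mg/kg for 10 days and the mice of the study were 8 to 12 weeks old. *Foxp3* drives the Cre, so the deletion was limited to cells that expressed *Foxp3* under tamoxifen, and the WT mice carried the same Cre and were given the same drug. There are 4 WT libraries, named WT 1 to WT 4, and 5 KO libraries, named KO 1 to KO 5. The methods give 4 mice per genotype, so not every KO library can be tied to a mouse of its own, and p-values measure the spread between libraries.

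Levels are in FPKM (reads per length of the gene and depth of the library), and differences are KO minus WT on log2(FPKM + 1), a scale on which changes of low genes appear too small. *Hsp90b1* measured 44.4 to 62.9 FPKM in the WT libraries and 1.77 to 3.11 FPKM in the KO libraries. Recovered reads numbered between 12068259 and 24542203 per library. A pair of libraries, WT 1 and KO 1, lay far from the other 7, at −69.9 and −67.6 on a first principal component that held 58.6% of the variance, with the others at 8.88 to 26.3. Genes above 0 numbered 18079 and 19010 in WT 1 and KO 1 and 20420 to 21292 in the others. The nuclear RNA *Malat1* measured 24.9 and 30.6 FPKM there, against 182 to 374 FPKM in the other libraries. Calls are therefore given over all 9 libraries and over 7 libraries, the 3 of WT 2 to WT 4 with the 4 of KO 2 to KO 5. Of 9 Treg and T cell genes, all were detected, and their summed level was 1464 to 2071 FPKM in WT and 1434 to 2049 FPKM in KO libraries. Of these, *Il2ra*, which encodes the IL-2 receptor alpha chain, fell by 1.33 on the log2 scale over all 9 libraries (adjusted p = 1.7e-04 in limma) and over the 7 (adjusted p = 5.6e-06), while *Cd4* and *Ikzf2* rose over the 7 (adjusted p = 0.00493 and 0.046) and did not pass over all 9 (adjusted p = 0.833 and 0.826).

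With all 9 libraries, only 1 of the 34 genes rose and 1 fell in limma, with calls made where p after adjustment over all genes tested was under 0.05. The glucose transporter gene *Slc2a3* rose, and *Hk2*, which encodes an inducible hexokinase, fell. Of the 12312 genes tested, 3.21% were called higher and 3.55% lower. Over the 7 libraries, 7 of the 34 genes rose and 10 fell, against 19.5% higher and 17.1% lower among the 12082 genes tested. All 34 genes passed the filter in both fits. The 7 that rose make up 20.6% of the list, near the background, and the 10 that fell make up 29.4%. The median difference over the list was −0.05 over all 9 libraries and −0.04 over the 7, against 0.02 and 0.02 over all genes tested. The replicate number was also used as a block, over WT 1 to WT 4 and KO 1 to KO 4. Within the 7 libraries, deviations from group means of same-numbered libraries correlated at only −0.174 to 0.029. Under the block, 1818 of the 12146 genes tested were called higher and 1602 lower in limma. Of the 34 genes, 7 were called higher and 6 lower. Those 13 calls hold *Slc2a3* (adjusted p = 0.00305) and *Hk2* (adjusted p = 0.0218), and among the 17 genes called in the 7 libraries *Gapdh*, *Pgk1*, *Pgam1*, *Pkm* and *Slc16a3* were not called under that block.

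**Figure D1:**
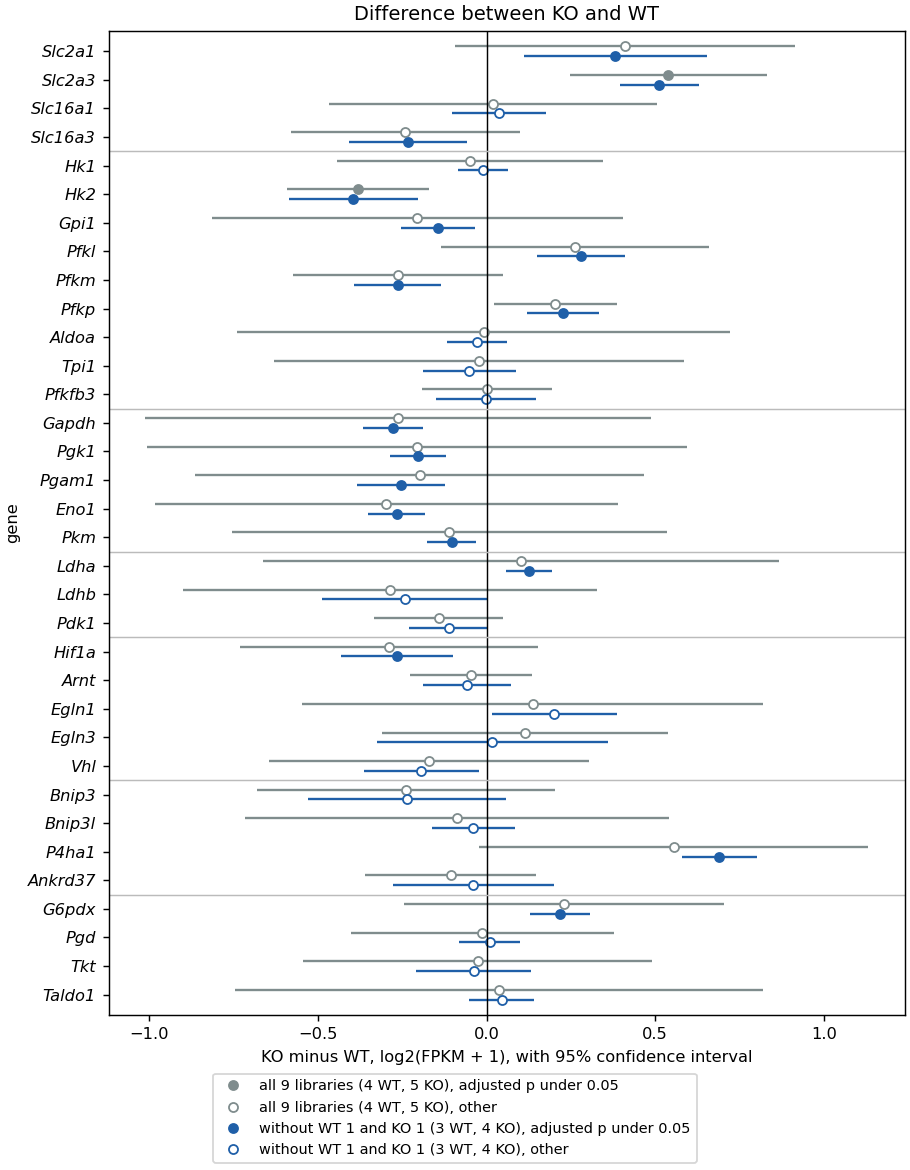
Difference between KO and WT for each of the 34 genes, as KO minus WT on log2(FPKM + 1) on the horizontal axis, with the 95% confidence interval from limma; gray, all 9 libraries, and blue, the 7 libraries without WT 1 and KO 1, with filled points for an adjusted p under 0.05 and gray lines between groups of genes. The points of both fits lie close together for most genes, while the intervals over all 9 libraries are wider, and *P4ha1* has the highest value of the 7-library fit at 0.69.

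Glucose enters T cells through GLUT1 and GLUT3, encoded by *Slc2a1* and *Slc2a3*, and lactate and pyruvate cross the membrane through MCT1 and MCT4, encoded by *Slc16a1* and *Slc16a3*. *Slc2a3* measured 20.8, 16.8, 17.7 and 16.97 FPKM in WT 1 to WT 4 and 34.7, 23.9, 25.3, 23.7 and 26.8 FPKM in KO 1 to KO 5. Every KO library was above every WT library, also within the 7, and KO 1 was the highest of all. The difference was 0.54 (standard error 0.129, adjusted p = 0.0398 in limma). A two-sided exact permutation test gave p = 0.0159, the smallest that 4 against 5 libraries allow. Groups that do not overlap always give that value, and it is given only for such genes, so it adds no support. The adjusted p was between 0.0146 and 0.14 when 1 library was left out, and only leaving out WT 1 or KO 1 kept it under 0.05. Over the 7 libraries it was 0.51 (standard error 0.0498, adjusted p = 2.9e-04), and adjusted p stayed at or below 0.00222 whichever library was left out. Groups that do not overlap in this direction were seen for 6.10% of all genes tested.

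*Slc2a1* averaged 12.1 ± 1.84 FPKM in WT 2 to WT 4 and 16.1 ± 1.91 FPKM in KO 2 to KO 5 (SD, n = 3 and n = 4), and rose by 0.38 over the 7 libraries (adjusted p = 0.0371 in limma). That call was lost without WT 2, WT 4, KO 3, KO 4 or KO 5, with adjusted p up to 0.0995, and over all 9 libraries its adjusted p was 0.414. *Slc16a3*, a low gene at 1.94 ± 0.0984 FPKM in WT 2 to WT 4 and 1.50 ± 0.0898 FPKM in KO 2 to KO 5, fell over the 7 libraries (−0.23, adjusted p = 0.0451 in limma) and lost the call whichever of the 7 libraries was left out (adjusted p 0.0671 to 0.112). With all 9 libraries it was at −0.24 and did not pass (adjusted p = 0.509). *Slc16a1* did not pass in either fit, with a difference of 0.04 over the 7 libraries (95% interval −0.10 to 0.18). The ratio of *Slc16a3* to *Slc16a1* was 0.253 to 0.311 in the 4 WT libraries and 0.197 to 0.224 in the 5 KO libraries. It rested on 111 to 288 reads of *Slc16a3* per library, and was not tested. The ratio of *Slc2a3* to *Slc2a1* overlapped, at 1.16 to 1.65 in WT and 1.20 to 1.68 in KO libraries.

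Upper glycolysis spends ATP to turn glucose into triose phosphates. Of its 9 genes, *Hk2* fell over all 9 libraries, and over the 7 libraries 2 rose and 3 fell, where 19.5% of all genes tested were called higher and 17.1% lower. *Hk2* measured 1.84, 1.79, 1.66 and 1.93 FPKM in WT 1 to WT 4 and 1.28, 1.04, 1.09, 1.15 and 1.22 FPKM in KO 1 to KO 5. Every KO library was below every WT library, as was the case for 5.69% of all genes tested, and WT 1 and KO 1 lay close to the others of their group. The difference was −0.38 over all 9 libraries (standard error 0.0928, adjusted p = 0.0431 in limma) and −0.39 over the 7 (standard error 0.0816, adjusted p = 0.0084). The exact permutation test over all 9 libraries gave p = 0.0159, the value that groups without overlap always give. Over all 9 libraries the call was lost when any library other than KO 1 was left out (adjusted p up to 0.149). Over the 7 it kept an adjusted p of at most 0.0293. *Hk2* is a low gene, with 92 to 194 reads per library, and its level stood close to the filter of 1 FPKM. *Hk1*, which encodes the constitutive hexokinase, averaged 21.3 ± 0.106 FPKM in WT 2 to WT 4 and 21.1 ± 0.454 FPKM in KO 2 to KO 5, a difference of −0.01 (95% interval −0.09 to 0.06). The ratio of *Hk2* to *Hk1* was 0.0563 to 0.0905 in WT libraries and 0.0406 to 0.0591 in KO libraries, so the *Hk1* transcript made up nearly all of the hexokinase signal of these genes in each library.

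Phosphofructokinase, the committed step of glycolysis, has a liver, a muscle and a platelet isoform, encoded by *Pfkl*, *Pfkm* and *Pfkp*. Over the 7 libraries *Pfkl* rose from 8.78 ± 0.691 to 10.9 ± 0.308 FPKM (0.28, adjusted p = 0.00698 in limma) and *Pfkp* from 13.1 ± 0.387 to 15.5 ± 0.696 FPKM (0.23, adjusted p = 0.00724). *Pfkm* fell from 7.86 ± 0.336 to 6.38 ± 0.337 FPKM (−0.26, adjusted p = 0.00869; SD, n = 3 and n = 4 for each gene). All 3 calls were kept whichever of the 7 libraries was left out, with adjusted p at most 0.0404. With all 9 libraries the differences were 0.26, 0.20 and −0.26, and none passed (adjusted p = 0.557, 0.213 and 0.388 in limma). As a share of the summed FPKM of the 3 genes, *Pfkm* held 27.3%, 27.7% and 24.5% in WT 2 to WT 4 and 21.1%, 18.9%, 19.9% and 18.3% in KO 2 to KO 5. In WT 1 and KO 1 that share was 18.5% and 12.5%, lower than in the rest of their group, as was *Pfkm* itself.

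*Gpi1*, which encodes glucose-6-phosphate isomerase, averaged 53.1 ± 1.18 FPKM in WT 2 to WT 4 and 48.01 ± 2.67 FPKM in KO 2 to KO 5 (−0.14, adjusted p = 0.0464 in limma), and only without KO 5 did it keep that call (adjusted p up to 0.129). With all 9 libraries it was at −0.21 and did not pass (adjusted p = 0.819). *Aldoa*, which encodes aldolase and was the highest gene of upper glycolysis, measured 175, 92.8, 92.8 and 89.0 FPKM in WT 1 to WT 4 and 217, 89.0, 94.3, 88.3 and 87.2 FPKM in KO 1 to KO 5. The 7 libraries overlapped within a narrow range and WT 1 and KO 1 stood far above them. Its difference over the 7 was −0.03 (95% interval −0.12 to 0.06). The triose phosphate isomerase gene *Tpi1* and *Pfkfb3*, whose product makes an activator of phosphofructokinase, also did not pass in either fit, with differences over the 7 libraries of −0.05 (95% interval −0.19 to 0.09) and −0.00 (95% interval −0.15 to 0.15).

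**Figure D2:**
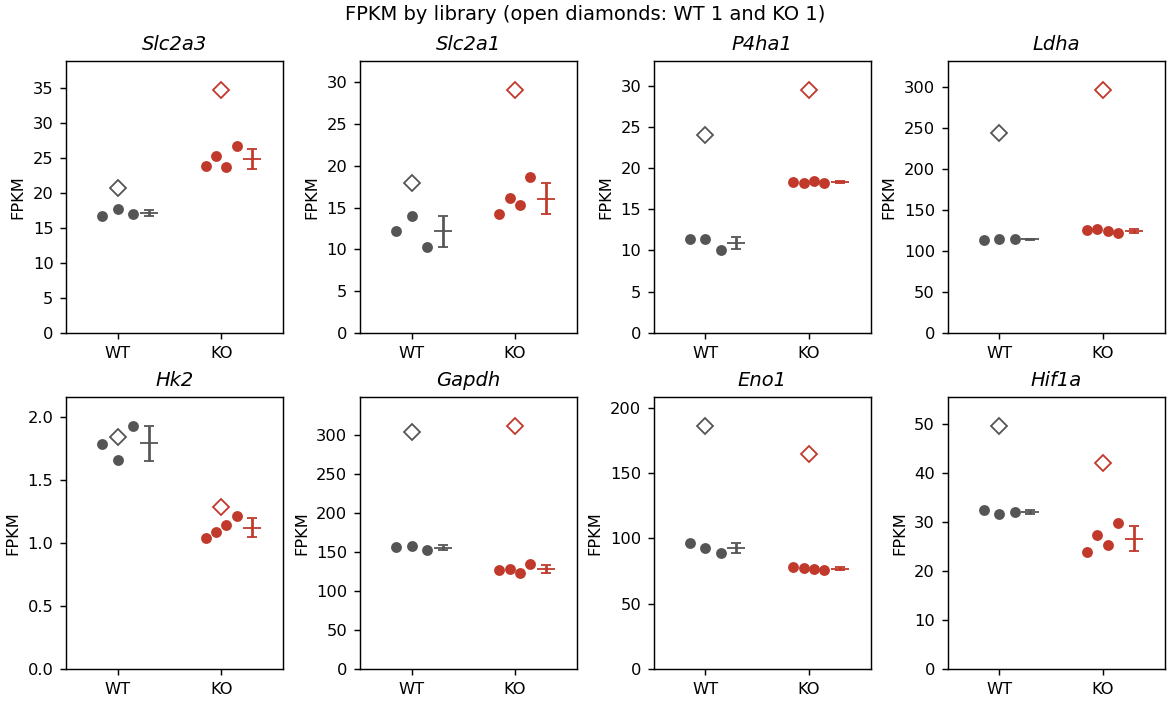
FPKM of 8 of the genes in each library, on axes from 0, with WT in gray and KO in red; filled points are WT 2 to WT 4 and KO 2 to KO 5, the bar beside them is their mean ± SD, and open diamonds are WT 1 and KO 1. *Slc2a3* is higher and *Hk2* lower in every KO library, while for *Gapdh*, *Eno1* and *Ldha* the diamonds lie far above both groups.

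In lower glycolysis, which turns triose phosphates into pyruvate and yields ATP and NADH, all 5 genes fell in the 7 libraries, in which 17.1% of all genes tested were called lower. With all 9, 0 of the 5 passed in limma, with 0 at an unadjusted p under 0.05, and 0 of the 4 tested in limma-voom on recovered reads. *Gapdh*, which encodes glyceraldehyde-3-phosphate dehydrogenase, measured 304, 156, 158 and 152 FPKM in WT 1 to WT 4 and 311, 127, 128, 123 and 134 FPKM in KO 1 to KO 5. Within the 7 libraries every KO library was below every WT library, whereas KO 1 was above WT 1. The difference over the 7 was −0.28 (standard error 0.0385, adjusted p = 0.00145 in limma). Over all 9 it was −0.26 (standard error 0.332, adjusted p = 0.811).

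The 4 other genes of this segment are *Pgk1* (phosphoglycerate kinase), *Pgam1* (phosphoglycerate mutase), *Eno1* (enolase) and *Pkm* (pyruvate kinase). *Eno1* fell from 92.6 ± 3.80 to 76.8 ± 1.16 FPKM (−0.27, adjusted p = 0.00132 in limma; SD, n = 3 and n = 4). *Pgk1* fell from 61.9 ± 1.73 to 53.6 ± 1.47 FPKM (−0.20, adjusted p = 0.00394) and *Pgam1* from 16.3 ± 0.304 to 13.6 ± 0.908 FPKM (−0.25, adjusted p = 0.0106). *Pkm* had the smallest difference of the segment (−0.10, adjusted p = 0.0356), and lost its call without WT 2, WT 3, KO 2, KO 3 or KO 4 (adjusted p up to 0.135). The calls of *Gapdh*, *Pgk1*, *Pgam1* and *Eno1* were kept whichever of the 7 libraries was left out. In KO 1 minus WT 1, however, *Gapdh* was at 0.03, *Pgk1* at 0.06, *Pgam1* at 0.21 and *Pkm* at 0.08, and of the 5 only *Eno1* was negative (−0.17). For 13 of the 17 genes called in the 7 libraries, KO 1 minus WT 1 had the sign of the call. The 4 exceptions were those genes of lower glycolysis. Over all genes tested the median of KO 1 minus WT 1 was 0.02. How often the sign was shared among all genes called in the 7 libraries was not computed, so 13 of 17 has no background.

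**Figure D3:**
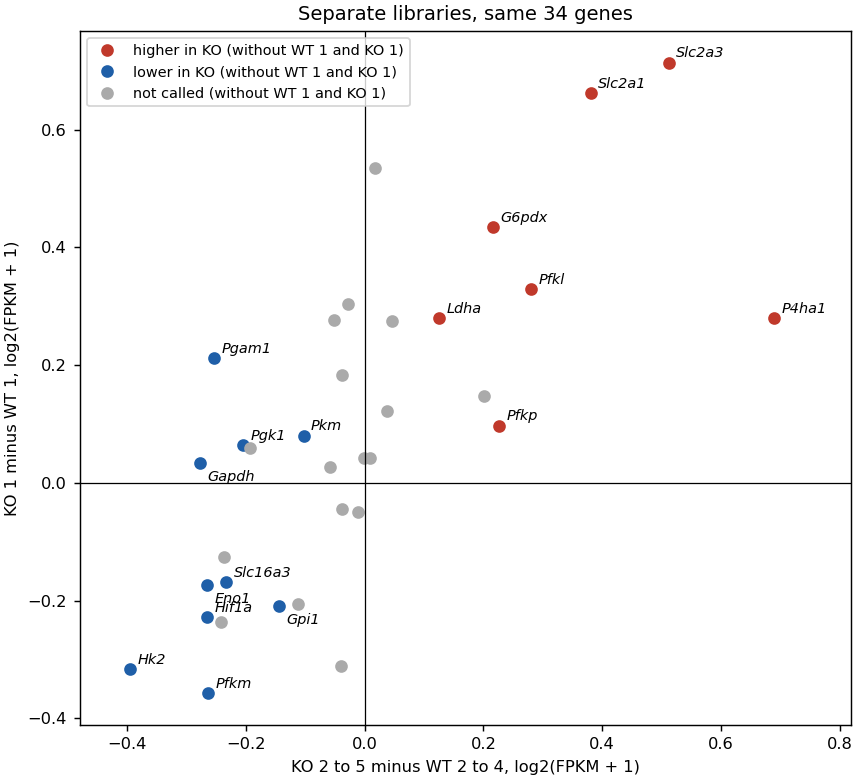
Each point is 1 of the 34 genes, with the difference between KO 2 to KO 5 and WT 2 to WT 4 on the horizontal axis and KO 1 minus WT 1 on the vertical axis, both on log2(FPKM + 1), and no library in both; red and blue mark genes called higher and lower in the 7 libraries and gray those not called. All 7 red points are above 0 on the vertical axis, and of the 10 blue points *Gapdh*, *Pgk1*, *Pgam1* and *Pkm* are also above it.

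At the branch point of pyruvate, lactate dehydrogenase interconverts pyruvate and lactate, with *Ldha* and *Ldhb* encoding its subunits, and *Pdk1* encodes a kinase that holds pyruvate dehydrogenase inactive. *Ldha* measured 244, 114, 114 and 115 FPKM in WT 1 to WT 4 and 296, 126.02, 127, 124 and 122 FPKM in KO 1 to KO 5. Every KO library was above every WT library within the 7, by a small margin, and KO 1 was above WT 1. The difference over the 7 libraries was 0.13 (standard error 0.0294, adjusted p = 0.0141 in limma), and without WT 3 the adjusted p was 0.0546. Over all 9 libraries it did not pass (0.10, adjusted p = 0.942). *Ldhb* and *Pdk1* were at −0.24 and −0.11 over the 7 libraries and did not pass (adjusted p = 0.113 and 0.12). With the replicate block over WT 1 to WT 4 and KO 1 to KO 4, *Ldhb* was called lower (−0.29, adjusted p = 0.0287 in limma). The ratio of *Ldha* to *Ldhb* was 3.62 to 4.73 in WT libraries and 4.48 to 6.62 in KO libraries, and these ranges overlapped.

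Among the oxygen sensors, HIF-1α (*Hif1a*) pairs with ARNT (*Arnt*), the prolyl hydroxylases PHD2 and PHD3 (*Egln1*, *Egln3*) mark it for degradation, and *Vhl* encodes the ubiquitin ligase subunit that binds the marked protein. *Hif1a* measured 49.5, 32.4, 31.6 and 32.0 FPKM in WT 1 to WT 4 and 42.1, 23.8, 27.4, 25.2 and 29.7 FPKM in KO 1 to KO 5. KO was below WT in both sets of libraries taken apart, and KO 1 was above WT 2 to WT 4. Over the 7 libraries *Hif1a* fell by 0.27 on the log2 scale (standard error 0.0705, adjusted p = 0.0228 in limma). The adjusted p passed 0.05 without WT 2, WT 3, WT 4 or KO 4, reaching 0.0699, and over all 9 libraries it was 0.567. *Egln1* and *Vhl* did not overlap between the groups of the 7 libraries and did not pass in limma, at 0.20 (adjusted p = 0.0863) and −0.19 (adjusted p = 0.0745). Of 8 other settings over the same 7 libraries, only limma-voom called *Vhl* lower (adjusted p = 0.0439). Non-overlapping groups in the 7 libraries were common among all genes tested, 23.9% with KO above WT and 20.6% with KO below. *Arnt* and *Egln3* were at −0.06 (95% interval −0.19 to 0.07) and 0.02 (95% interval −0.33 to 0.36), and *Egln3* rested on 80 to 262 reads per library.

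The 4 hypoxia targets did not move together. *P4ha1*, which encodes the catalytic subunit of the collagen prolyl 4-hydroxylase, an endoplasmic reticulum enzyme, measured 24.1, 11.4, 11.4 and 10.1 FPKM in WT 1 to WT 4 and 29.5, 18.4, 18.2, 18.4 and 18.1 FPKM in KO 1 to KO 5. KO 2 to KO 5 were nearly equal and all above WT 2 to WT 4, but WT 1 was above them, so the groups of all 9 libraries overlapped. The ratio of means over the 7 libraries was 1.67, and the difference was 0.69 (standard error 0.0473, adjusted p = 6.4e-05 in limma). It was kept whichever of the 7 libraries was left out (adjusted p at most 5.4e-04). Over all 9 libraries it was 0.55 (standard error 0.256, adjusted p = 0.307). *Bnip3l*, a mitophagy receptor gene and the highest of the 4, measured 69.4, 37.7, 34.6 and 33.4 FPKM in WT 1 to WT 4 and 67.3, 32.1, 35.5, 34.3 and 35.1 FPKM in KO 1 to KO 5, and the groups overlapped with and without WT 1 and KO 1. Its difference over the 7 libraries was −0.04 (95% interval −0.16 to 0.08). The related mitophagy receptor gene *Bnip3* (−0.24, 95% interval −0.53 to 0.06) and the ankyrin repeat gene *Ankrd37* (−0.04, 95% interval −0.28 to 0.20) also did not pass, and both are low, with 22 to 94 and 31 to 47 reads per library.

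Because HIF-1 binds a short motif, the promoters of 6 of these genes are shown, *P4ha1* and *Ldha*, which rose in the 7 libraries, and *Hk2*, *Gapdh*, *Pgk1* and *Eno1*, which fell. Each is the RefSeq sequence of build GRCm38.p6 from 250 bases before to 50 bases after a start site, 5′ to 3′ on the gene's strand, and where RefSeq has several starts the first is shown. The core motif was searched as ACGTG or GCGTG on both strands, so that CACGT and CACGC also match, matches may overlap, and capitals mark the matched bases. *P4ha1* is at chr10:59323046-59323345 on the plus strand, *Ldha* at chr7:46845554-46845853 on the plus strand, *Hk2* at chr6:82774405-82774704 on the minus strand, *Gapdh* at chr6:125165724-125166023 on the minus strand, *Pgk1* at chrX:106186850-106187149 on the plus strand and *Eno1* at chr4:150236458-150236757 on the plus strand.
P4ha1 promoter: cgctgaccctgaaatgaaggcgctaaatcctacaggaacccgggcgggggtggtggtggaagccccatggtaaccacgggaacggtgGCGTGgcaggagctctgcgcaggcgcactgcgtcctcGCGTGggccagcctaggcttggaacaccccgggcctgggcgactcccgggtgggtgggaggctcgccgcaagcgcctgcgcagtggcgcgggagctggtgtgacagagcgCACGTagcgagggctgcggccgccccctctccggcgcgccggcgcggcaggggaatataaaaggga
Ldha promoter: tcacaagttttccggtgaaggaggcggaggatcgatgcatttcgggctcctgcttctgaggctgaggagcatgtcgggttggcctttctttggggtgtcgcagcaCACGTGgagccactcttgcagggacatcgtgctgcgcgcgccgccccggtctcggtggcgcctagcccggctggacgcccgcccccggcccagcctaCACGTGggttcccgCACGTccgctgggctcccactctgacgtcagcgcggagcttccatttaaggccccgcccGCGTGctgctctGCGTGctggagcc
Hk2 promoter: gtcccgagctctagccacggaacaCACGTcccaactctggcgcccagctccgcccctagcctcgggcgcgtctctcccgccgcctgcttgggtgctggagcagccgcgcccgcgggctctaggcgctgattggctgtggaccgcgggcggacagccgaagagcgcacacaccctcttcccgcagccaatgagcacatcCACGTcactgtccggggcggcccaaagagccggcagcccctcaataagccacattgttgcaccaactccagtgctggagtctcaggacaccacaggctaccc
Gapdh promoter: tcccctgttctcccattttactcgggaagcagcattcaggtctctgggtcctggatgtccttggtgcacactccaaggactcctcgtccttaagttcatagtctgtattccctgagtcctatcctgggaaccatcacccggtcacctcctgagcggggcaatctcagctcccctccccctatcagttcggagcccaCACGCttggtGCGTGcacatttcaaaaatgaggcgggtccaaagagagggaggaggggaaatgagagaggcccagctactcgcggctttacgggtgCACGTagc
Pgk1 promoter: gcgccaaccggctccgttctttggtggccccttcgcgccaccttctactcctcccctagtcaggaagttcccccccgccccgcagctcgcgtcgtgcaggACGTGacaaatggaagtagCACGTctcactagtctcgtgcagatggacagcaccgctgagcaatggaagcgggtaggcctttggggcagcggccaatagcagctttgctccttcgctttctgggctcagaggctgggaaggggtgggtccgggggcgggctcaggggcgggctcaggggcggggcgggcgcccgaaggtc
Eno1 promoter: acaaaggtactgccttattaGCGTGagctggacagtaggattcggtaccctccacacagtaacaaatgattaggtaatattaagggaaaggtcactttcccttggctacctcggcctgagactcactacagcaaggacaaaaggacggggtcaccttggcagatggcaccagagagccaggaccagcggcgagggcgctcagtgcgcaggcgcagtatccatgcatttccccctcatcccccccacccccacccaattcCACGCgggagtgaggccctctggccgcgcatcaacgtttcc
The motif matched 3 times in the window of *P4ha1*, 7 times in *Ldha*, 2 times in *Hk2*, 3 times in *Gapdh*, 2 times in *Pgk1* and 2 times in *Eno1*. Of the 34 genes, 32 had promoters in the RefSeq set, and 36 of their 45 windows held a match (80%), against 43.8% of the 32851 windows of all genes. The windows of all genes were not matched to these for base composition or expression. Whether HIF-1 binds at any match was not tested. By gene, a match was found for 6 of 6 that rose in the 7 libraries, 9 of 10 that fell and 14 of 16 that were not called, so genes with a match lay on both sides. *Slc2a3* and *Bnip3l* were not matched to the RefSeq promoters.

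In the pentose phosphate pathway, *G6pdx* encodes glucose-6-phosphate dehydrogenase, which commits glucose to the pathway and makes NADPH, *Pgd* the next NADPH-producing enzyme, and *Tkt* and *Taldo1* the transketolase and transaldolase that return sugars to glycolysis. *G6pdx* rose from 12.3 ± 0.227 to 14.5 ± 0.444 FPKM over the 7 libraries (SD, n = 3 and n = 4; 0.22, adjusted p = 0.00428 in limma) and kept that call whichever library was left out. KO 1 minus WT 1 was 0.43, and over all 9 libraries the adjusted p was 0.706. *Taldo1*, the highest gene of the pathway, measured 115, 55.2, 53.8 and 51.6 FPKM in WT 1 to WT 4 and 139, 55.7, 52.5, 55.4 and 57.5 FPKM in KO 1 to KO 5, with overlap among the 7 libraries. *Taldo1*, *Pgd* and *Tkt* did not pass in either fit, at 0.05 (95% interval −0.05 to 0.14), 0.01 (95% interval −0.08 to 0.10) and −0.04 (95% interval −0.21 to 0.13) over the 7.

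**Figure D4:**
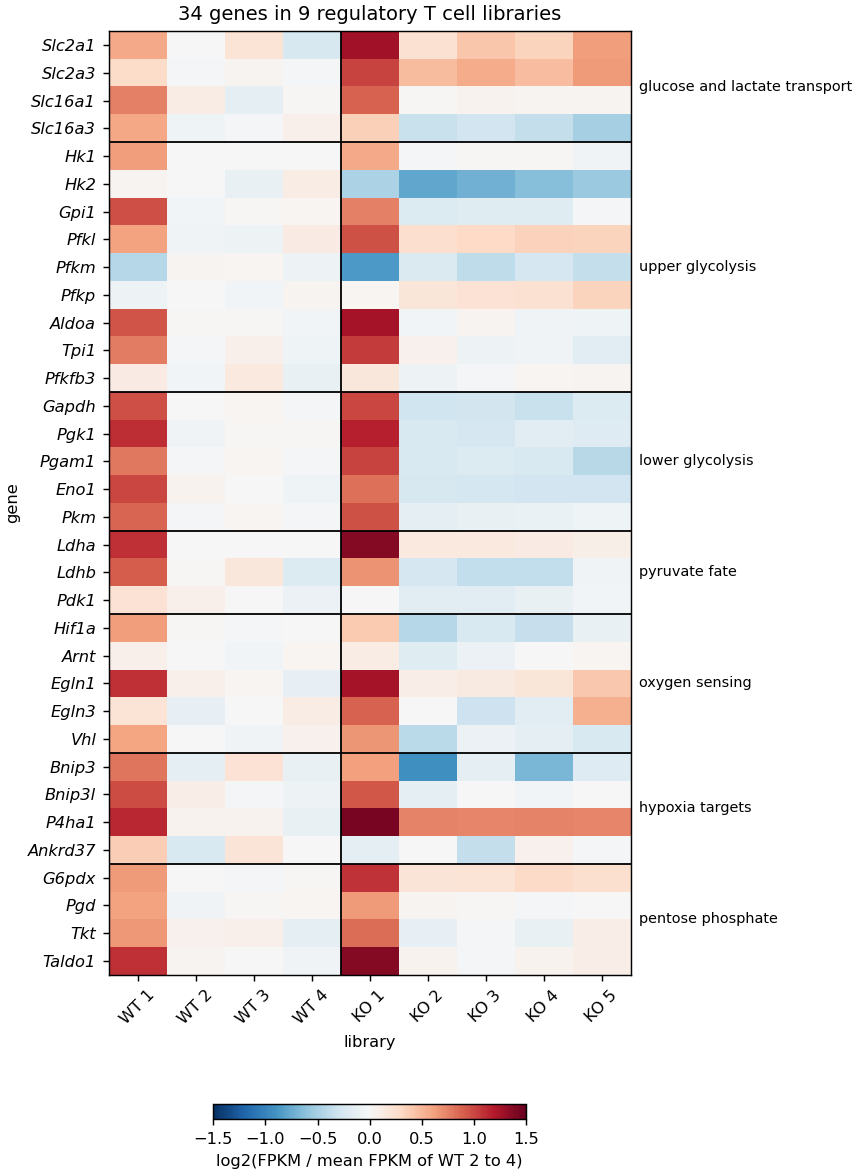
Level of each of the 34 genes in each of the 9 libraries, as log2 of the FPKM over the mean of WT 2 to WT 4 (red above, blue below), with genes grouped by role and a vertical line between WT and KO. The columns of WT 1 and KO 1 are red for most genes, and those of *Hk2*, *Pfkm*, *Pfkp* and *Arnt* are pale or blue.

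Most of these genes were higher in WT 1 and KO 1 than in the other libraries. Both WT 1 and KO 1 were above all other 7 libraries for 25 of the 34 genes, and the share of all genes tested with that pattern was not computed. The median of WT 1 over the mean of WT 2 to WT 4 was 1.56 for the 34 genes and 1.06 for all genes tested, and that of KO 1 over KO 2 to KO 5 was 1.81 and 1.08. Highly expressed genes in general were higher in these libraries, with medians of 1.63 and 1.70 over the 812 genes above 50 FPKM in WT 2 to WT 4, and of 1.98 and 2.39 over the 8 genes described here above that level. Scaled to recovered reads instead, the 34 genes had medians of 1.19 and 1.42, against 0.808 and 0.85 for all genes tested.

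Markers of other cells differed between the groups too. The summed level of 13 myeloid and neutrophil markers was 51.0 to 66.8 FPKM in WT 2 to WT 4, 3.59 to 17.5 FPKM in KO 2 to KO 5, 14.9 FPKM in WT 1 and 28.3 FPKM in KO 1, and all 5 that were tested fell over the 7 libraries in limma, while 0 passed over all 9 (2 at an unadjusted p under 0.05, and 0 adjusted calls in limma-voom). The 10 B cell markers summed to 81.2 to 107 FPKM in WT 2 to WT 4 and 38.2 to 47.3 FPKM in KO 2 to KO 5, mostly *Cd74*, with 79.6 FPKM in WT 1 and 79.3 FPKM in KO 1. Of the 4 tested, 2 fell over all 9 libraries and 3 over the 7. The 8 CD8 T and NK markers summed to 13.2 to 13.5 FPKM in WT 2 to WT 4 and 8.13 to 11.1 FPKM in KO 2 to KO 5, with 19.7 FPKM in WT 1 and 18.1 FPKM in KO 1. Over all 9 libraries 0 of 4 tested passed (0 at an unadjusted p under 0.05, and 0 adjusted calls in limma-voom), and 2 of 3 fell over the 7. Beside these marker calls, 3.55% of all genes tested were called lower over all 9 libraries and 17.1% over the 7. The defining B cell marker *Ms4a1* was at or below 0.393 FPKM in every library. The 9 erythroid and 5 platelet markers summed to at most 7.61 and 2.00 FPKM in any library. The part of other cell types in the differences above was not tested, and in bulk samples fewer cells of a type and less RNA per cell cannot be told apart.

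Beyond the 34 genes, 7 lists of neighboring genes were examined, and calls were counted in both fits of limma. The lists overlap, as *Gapdhs* was counted among both the regulators of glycolysis and the other glycolysis enzymes. *Pfkfb4* was counted among both the regulators and the other hypoxia targets. Beside these counts, 3.21% of all genes tested were called higher and 3.55% lower over all 9 libraries, and 19.5% and 17.1% over the 7. Of 14 tested regulators of glycolysis and sugar transporters, 3 rose over all 9 libraries, and 8 rose (against 19.5% of all genes) and 3 fell (against 17.1%) over the 7. *Emb*, which encodes embigin, an accessory protein of monocarboxylate transporters, measured 30.6, 16.7, 16.5 and 15.6 FPKM in WT 1 to WT 4 and 69.9, 37.8, 37.9, 36.6 and 45.9 FPKM in KO 1 to KO 5. Every KO library was above every WT library, and it rose by 1.17 over all 9 libraries (standard error 0.25, adjusted p = 0.0245) and by 1.23 over the 7. The glucose transporter GLUT8, *Slc2a8*, and the glucose-6-phosphate transporter of the endoplasmic reticulum, *Slc37a4*, rose by 0.48 (adjusted p = 0.0075) and 0.42 (adjusted p = 0.0338). Leaving out WT 2, WT 3, WT 4 or KO 5 took the call from *Emb* (adjusted p up to 0.0944), and leaving out any library but KO 1 took it from *Slc37a4* (up to 0.104).

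Among 9 tested other glycolysis enzymes, 1 fell over all 9 libraries, and 3 rose and 2 fell over the 7. That 1 gene, the muscle-type enolase gene *Eno3*, measured 18.5, 20.5, 21.4 and 20.5 FPKM in WT 1 to WT 4 and 4.46, 11.9, 10.4, 11.1 and 9.73 FPKM in KO 1 to KO 5. Unlike *Eno1*, it was lowest in KO 1, and every KO library was below every WT library. Its difference was −1.07 over all 9 libraries (adjusted p = 0.028 in limma; up to 0.0996 with WT 2, WT 3, WT 4, KO 3 or KO 5 left out) and −0.89 over the 7. The ratio of *Eno3* to *Eno1* was 0.0995 to 0.231 in WT libraries and 0.0271 to 0.152 in KO libraries. Of 12 genes that carry pyruvate to acetyl-CoA, 0 passed over all 9 libraries in limma (1 at an unadjusted p under 0.05, and 1 adjusted call in limma-voom), and 4 fell over the 7, among them the pyruvate dehydrogenase kinase gene *Pdk2* (−0.45, adjusted p = 0.00356 in limma), which was chosen after its values were seen.

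Of 11 other pentose phosphate genes, 2 rose over all 9 libraries, and 4 rose and 2 fell over the 7, the 2 near the 17.1% of all genes that were called lower there. *Tktl1*, a gene related to transketolase, measured 2.02, 1.14, 1.06 and 1.17 FPKM in WT 1 to WT 4 and 7.52, 3.91, 3.77, 3.12 and 4.14 FPKM in KO 1 to KO 5. It was low in all WT libraries and rose by 1.20 over all 9 libraries (adjusted p = 0.0112 in limma, 0.0508 without WT 3) and by 1.15 over the 7. The sedoheptulokinase gene *Shpk*, whose product feeds a sugar phosphate into the pathway, rose by 0.52 (adjusted p = 0.00954).

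**Figure D5:**
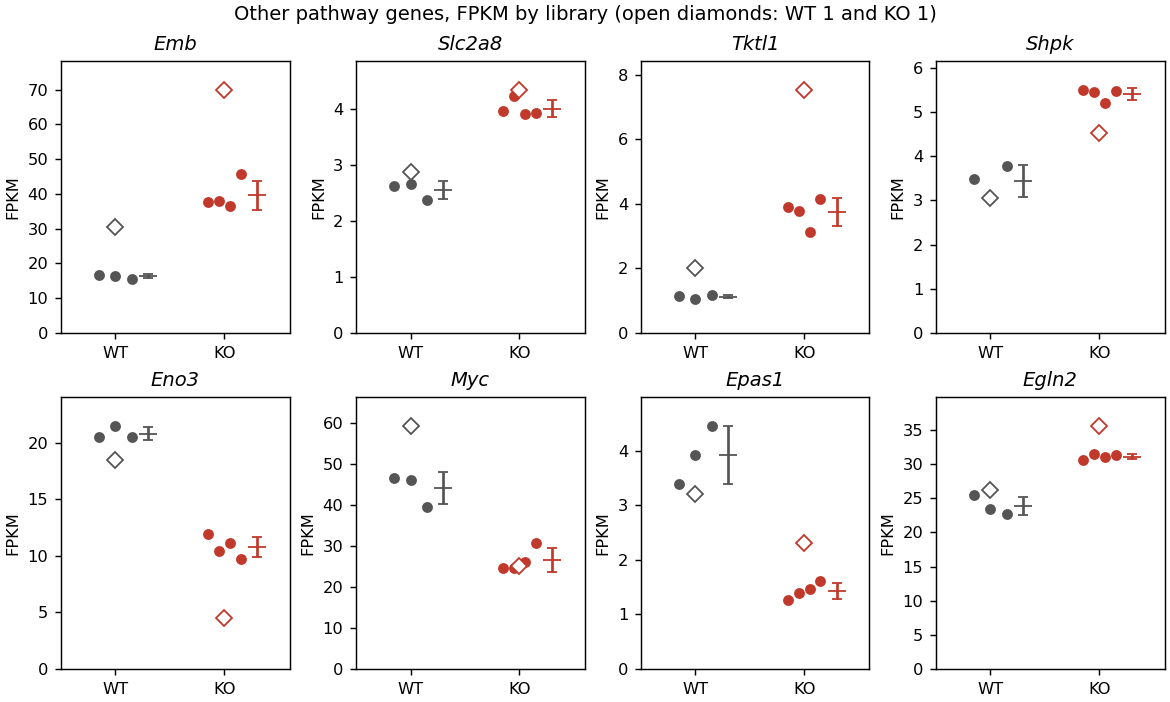
FPKM of 8 genes from the neighboring lists in each library, on axes from 0, with WT in gray and KO in red; filled points are WT 2 to WT 4 and KO 2 to KO 5 with their mean ± SD, and open diamonds are WT 1 and KO 1. *Emb*, *Slc2a8*, *Tktl1*, *Shpk* and *Egln2* are higher, and *Eno3*, *Myc* and *Epas1* lower, in every KO library than in any WT library.

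Of 16 other genes of the HIF pathway, 2 rose and 1 fell over all 9 libraries, and 4 rose and 3 fell over the 7, both near the shares of all genes called there (19.5% and 17.1%). *Epas1*, which encodes HIF-2α, fell by 0.87 on the log2 scale (standard error 0.137, adjusted p = 0.00613 in limma), from 3.21 to 4.45 FPKM in WT libraries to 1.26 to 2.31 FPKM in KO libraries. *Arntl*, which encodes BMAL1, a circadian partner in the same protein family as ARNT, rose by 0.55 (adjusted p = 0.00543), and the prolyl hydroxylase gene *Egln2* by 0.38 (adjusted p = 0.0321, up to 0.129 with any of WT 2 to WT 4 or KO 2 to KO 5 left out). Of 26 other hypoxia targets, 0 passed over all 9 libraries in limma or in limma-voom (2 higher and 5 lower at an unadjusted p under 0.05 in both), while 4 rose and 9 fell over the 7. *Ddit4*, which encodes an inhibitor of mTOR, measured 442, 140.0, 128 and 117 FPKM in WT 1 to WT 4 and 165, 64.8, 60.7, 70.4 and 66.5 FPKM in KO 1 to KO 5. It was chosen after its values were seen, KO was below WT within each set of libraries, and it fell by 0.96 over the 7 on the log2 scale (adjusted p = 9.4e-05) without passing over all 9 (adjusted p = 0.209).

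Of 18 inputs to glycolysis from MYC and mTOR, 4 fell over all 9 libraries, and 5 rose and 4 fell over the 7, where 19.5% and 17.1% of all genes were called. *Irf4*, a transcription factor that supports glycolysis in activated T cells, fell by 0.82 (adjusted p = 6.7e-04 in limma). *Mxd4* and *Mxd1*, which encode repressors that compete with MYC for its partner MAX, fell by 0.83 (adjusted p = 0.00147) and 0.92 (adjusted p = 0.00328) on the log2 scale. The fourth was *Myc* itself, at 59.1, 46.5, 46.1 and 39.5 FPKM in WT 1 to WT 4 and 25.0, 24.5, 24.7, 26.0 and 30.8 FPKM in KO 1 to KO 5. Every KO library was below every WT library, and KO 1 lay within the other KO libraries. *Myc* fell by 0.83 (adjusted p = 0.00543), and all 4 genes kept their calls whichever of the 9 libraries was left out. The genes *Slc2a8*, *Slc37a4*, *Shpk*, *Epas1*, *Arntl*, *Egln2*, *Irf4*, *Mxd4*, *Mxd1* and *Myc* were also called in the same direction over the 7 libraries, with adjusted p at most 0.00102 in limma.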

How the data were processed

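The submitters' processing notes name CASAVA, fastp and the mm10 build. The sources used here do not give the aligner, the counting tool or its use of strand, although the labels call the libraries strand-specific. The authors deposited FPKM with a scaling across libraries built in. Whole reads, within 0.01 read, were recovered with GENCODE M21 gene lengths for 24408 of 25500 entries (95.7%), not including *Pgam1*. FPKM carry no error of their own, and low genes rest on few reads.

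Genes above 1 FPKM in at least 4 libraries were tested in R 4.3.3 on log2(FPKM + 1), a pseudocount of 1, by limma 3.58.1 with an intensity trend and Benjamini-Hochberg adjustment over all genes tested. The 34 genes, the lists and the rule for naming were chosen with earlier results of these data known. All 34 genes are named, with values in every library for those called with a difference of at least 0.5 and for the highest gene of each role, and for *Hk2*, added after its values were seen. Of each list, the 3 genes with the smallest p among those called over all 9 libraries are named. Genes listed but not found in the table were not analysed here. Alternatives were the sets of libraries, a replicate block, other scalings, filters, a pseudocount of 0.1 and limma-voom on recovered reads. The scaling to recovered reads and all alternatives for the 7 libraries were chosen after seeing the data. Another scaling, by median ratio, had a factor of 1.00 in every library, so it could not change any result. *Myc*, the fourth of its list, was named after its values were seen. The fit was tested on simulated data with equal spread for every gene and no libraries set apart. That test cannot tell how the fit handles WT 1 and KO 1.

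The replicate numbers of the labels were checked for pairing by correlating deviations from group means over tested genes. Over all 9 libraries same-numbered pairs correlated at 0.316 to 0.867, above the 0.1 set as a limit, and differently numbered pairs among libraries 2 to 5 at 0.172 to 0.57. Over the 7 libraries same-numbered pairs correlated at −0.174 to 0.029. The block left out KO 5.

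Exons of *Slc2a1*, *Hk1*, *Gpi1*, *Pfkm*, *Pfkp*, *Aldoa*, *Tpi1*, *Gapdh*, *Hif1a*, *Bnip3*, *Ankrd37* and *G6pdx* overlap a gene on the other strand, and those of *Pfkm*, *Pkm*, *Hif1a* and *Tkt* one on the same strand. Several glycolytic genes, such as *Gapdh* and *Pgk1*, have near-identical processed pseudogenes, with which reads may have been shared. Work was done in Python 3.11.15 with numpy 2.4.6, pandas 2.3.3 and matplotlib 3.10.9.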

Additional observations from a re-analysis of the deposited data

Results flagged for a closer look

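A library far from the rest of its group, by the gap to its nearest neighbor over the range of the group, was found in 41 of the 68 groups of 4 WT or 5 KO libraries looked at. Chance flags about 1 in 20 groups of like libraries, but the same WT 1 and KO 1 enter for every gene, so the groups are not independent. The share of such groups over all genes tested was not computed. In 23 of them the library was KO 1 and in 18 it was WT 1, always as the highest of its group. In upper glycolysis, the WT 1 and KO 1 values were 32.8 and 31.6 FPKM for *Hk1*, 104 and 89.9 FPKM for *Gpi1*, 175 and 217 FPKM for *Aldoa* and 35.3 and 42.9 FPKM for *Tpi1*. In lower glycolysis they were 304 and 311 FPKM for *Gapdh*, 133 and 139 FPKM for *Pgk1*, 28.3 and 33.0 FPKM for *Pgam1*, 186 and 165 FPKM for *Eno1* and 199.6 and 211 FPKM for *Pkm*. For the fate of pyruvate they were 244 and 296 FPKM for *Ldha*. In oxygen sensing they were 44.8 and 49.7 FPKM for *Egln1* and 15.4 and 16.1 FPKM for *Vhl*. Among the hypoxia targets they were 69.4 and 67.3 FPKM for *Bnip3l* and 24.1 and 29.5 FPKM for *P4ha1*. In the pentose phosphate pathway they were 19.2 and 26.2 FPKM for *G6pdx*, 17.03 and 17.6 FPKM for *Pgd* and 115 and 139 FPKM for *Taldo1*. Only KO 1 was far from its group, not WT 1, at 34.7 FPKM for *Slc2a3*, 16.97 FPKM for *Pfkl*, 44.8 FPKM for *Ldhb*, 12.6 FPKM for *Slc16a1*, 2.49 FPKM for *Slc16a3* and 50.2 FPKM for *Tkt*. For *Hif1a* only WT 1 was, at 49.5 FPKM. The cause of these levels was not tested.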

How the results depend on the processing

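Over all 9 libraries 395 genes were called higher and 437 lower, 1 of each among the 34. Without WT 1 and KO 1 these were 2359 and 2062 genes, with 7 and 10 of the 34. Against KO 2 to KO 5 alone, WT 1 to WT 4 gave 805 and 817 genes, with 2 higher of the 34. A term for WT 1 and KO 1 gave 2377 and 2094 genes, with 7 and 7 of the 34, and the replicate block 1818 and 1602 genes, with 7 and 6. Restricting to genes above 5 FPKM gave 241 and 213 genes, with 0 lower of the 34, since *Hk2* is below that filter. In limma, 0 of the 34 were called in either direction under upper-quartile scaling or without a filter (2 higher and 1 lower at an unadjusted p under 0.05 in each), and 0 lower when scaled to recovered reads (2 at an unadjusted p under 0.05) or with a pseudocount of 0.1 (1). Limma-voom called *Slc2a3* and *Hk2*, and the cause of these changes was not tested. Leaving out 1 library gave 196 to 805 genes higher and 189 to 817 lower, with 0 to 2 and 0 to 1 of the 34. It was 0 in both directions when any of WT 2 to WT 4 or KO 2 to KO 5 was left out (1 to 2 higher and 1 lower at an unadjusted p under 0.05), while leaving out WT 1 or KO 1 gave 2 higher. The cause was not tested. Over the 7 libraries, leaving out 1 gave 6 to 7 higher and 6 to 10 lower of the 34, 6 lower without WT 2, WT 3 or KO 4. The block gave 6 and 8 there, with 1796 and 1660 of the 11831 genes tested. The other settings stayed within 1.5 times there. Genes among the 34 called in a fit kept their direction under every setting of that same fit. Across fits this did not hold for all. *Ldha*, called higher over the 7 libraries, reached −0.1463 under a setting over all 9. *Pkm*, *Pgk1* and *Gpi1*, called lower over the 7, reached 0.1081, 0.0682 and 0.0341. Scaling to recovered reads took the calls of *Slc37a4*, *Eno3*, *Arntl* and *Shpk* over all 9 libraries (adjusted p up to 0.187), limma-voom that of *Slc37a4* (0.1) and upper-quartile scaling that of *Egln2* (0.0547). Low depth limits *Hk2*, *Slc16a3*, *Egln3*, *Bnip3* and *Ankrd37*, and with 3 against 4 libraries an exact permutation test cannot go below 0.0571.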
